A study of Mus musculus with 8 samples.

Results

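Lhx6, Sox6, Satb1, Maf, Sp9, Dlx1, Dlx5 and Dlx6 are transcription factor genes that act in cortical interneurons born in the medial ganglionic eminence. This embryonic zone gives rise to the PV+ and SST+ classes, and the Dlx genes and Sp9 also act in other neurons. The 8 genes were taken by name from the 45706 genes in the deposited tables. All 8 passed the filter on low counts, as did 17495 genes in all. The data are ribosome-associated mRNA of neocortical PV+ interneurons in primary somatosensory cortex (S1), in 4 CNO samples and 4 vehicle samples. All mice had the genotype PvalbFlp/+;Neurod6Cre/+ and received on postnatal day 1 an AAV that encodes HA-RPL10a and myc-hM3Dq, so vehicle-treated mice carried the same alleles and the same virus as CNO-treated ones. HA-RPL10a is a tagged ribosomal protein by which ribosomes are pulled down, and hM3Dq is a receptor that raises neuronal firing when CNO is present. CNO was given at 1 mg/kg in 5 injections over about 48 h, and the mice were 42 to 70 days old by the labels. Expression was driven by the human synapsin promoter, needed Flp from the Pvalb locus and was removed by Cre from Neurod6, a gene of pyramidal cells. Each sample pooled the tissue of 4 brains, and only the pulled-down RNA was analysed here. The comparison asks which mRNAs of these interneurons differ after their activity was raised.

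Progenitors of the medial ganglionic eminence carry Nkx2-1, which turns on the LIM homeobox gene Lhx6 in newborn interneurons and is itself shut off in those that enter the cortex. Lhx6 acts upstream of the SoxD factor Sox6 and the chromatin organizer Satb1, both needed for the placement and maturation of PV+ and SST+ cells, and the leucine zipper factor Maf acts in the same lineage. Dlx1, Dlx5 and Dlx6 belong to the distal-less homeobox family, which acts in GABAergic neurons of the whole subpallium and is arranged in the genome as pairs of neighbouring genes. Sp9 is a zinc-finger factor of the Sp family that acts in migrating interneurons and also in striatal projection neurons.

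The homeobox is the part of Lhx6 and the Dlx genes that codes for their DNA-binding domain, and it shows how far the close relatives counted here can be told apart by sequence. The 180 coding bases were read from the GRCm38 genome with GENCODE mouse release 21. Capitals mark 18 bases that code for a conserved part of the third helix, which contacts DNA.
Dlx1: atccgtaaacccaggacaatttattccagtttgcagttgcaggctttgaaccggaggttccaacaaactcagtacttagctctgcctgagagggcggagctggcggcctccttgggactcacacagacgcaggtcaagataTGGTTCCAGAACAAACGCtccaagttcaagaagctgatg
Dlx5: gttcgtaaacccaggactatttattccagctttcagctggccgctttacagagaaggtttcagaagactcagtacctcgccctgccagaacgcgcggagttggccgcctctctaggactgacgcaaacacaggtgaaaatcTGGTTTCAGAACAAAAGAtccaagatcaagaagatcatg
Dlx6: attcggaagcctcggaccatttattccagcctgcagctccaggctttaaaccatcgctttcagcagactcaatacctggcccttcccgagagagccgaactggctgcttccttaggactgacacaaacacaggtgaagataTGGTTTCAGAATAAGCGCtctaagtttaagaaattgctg
Lhx6: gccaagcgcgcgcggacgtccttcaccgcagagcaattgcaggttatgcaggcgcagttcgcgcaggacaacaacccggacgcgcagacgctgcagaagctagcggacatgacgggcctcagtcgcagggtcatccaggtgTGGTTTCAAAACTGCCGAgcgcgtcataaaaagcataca
In the Dlx genes the homeobox is split between 2 coding exons, at chr2:71531025-71531156 and chr2:71532264-71532311 (+ strand) for Dlx1, chr6:6879526-6879657 and chr6:6878441-6878488 (- strand) for Dlx5, and chr6:6865140-6865271 and chr6:6867041-6867088 (+ strand) for Dlx6. In Lhx6 it lies in 3 exons, at chr2:36091606-36091647, chr2:36091320-36091415 and chr2:36091095-36091136 (- strand). Dlx1 matched Dlx5 at 76.1% and Dlx6 at 76.7% of the 180 positions, Dlx5 matched Dlx6 at 73.3%, and Lhx6 matched the Dlx genes at 40.0% to 46.1%. The longest run of identical bases at the same positions was 14. Over whole transcripts, no 31-base stretch of Dlx5 or Sox6 occurred in a transcript of another gene. The share was 1.34% for Satb1, 2.12% for Lhx6, 5.38% for Maf, 5.84% for Dlx1, 7.21% for Sp9 and 9.88% for Dlx6.

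All 8 genes are protein-coding, and their positions are given on GRCm38. Lhx6 lies at chr2:36081953-36105408 (- strand), Sp9 at chr2:73271925-73284706 (+ strand) and Dlx1 at chr2:71528113-71533981 (+ strand), 9426 bases from Dlx2. Dlx5 lies at chr6:6877805-6882085 (- strand), 9236 bases from Dlx6 at chr6:6863334-6868568 (+ strand). Sox6 spans chr7:115470872-116038796 (- strand), Satb1 spans chr17:51736187-51833290 (- strand) and Maf lies at chr8:115682942-115707794 (- strand). Whether the counting used strand is not given in the sources used here, so reads in exons shared with a gene on the other strand cannot be assigned for certain. Such exons make up 6.21% of the exonic bases of Dlx1 (shared with Dlx1as), 5.35% of those of Sp9 (Cir1), 5.34% of those of Maf (Gm15655) and 4.38% of those of Dlx6 (Dlx6os2).

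The 250 bases upstream of the first start site are shown for 2 genes. Of the 8, Lhx6 varied least relative to the PV+ interneuron markers, and Sp9 had the largest fitted change. They come from RefSeq on GRCm38.p6, for Lhx6 at chr2:36105409-36105658 (- strand) and for Sp9 at chr2:73271676-73271925 (+ strand), and capitals mark a match to a searched motif.
Lhx6: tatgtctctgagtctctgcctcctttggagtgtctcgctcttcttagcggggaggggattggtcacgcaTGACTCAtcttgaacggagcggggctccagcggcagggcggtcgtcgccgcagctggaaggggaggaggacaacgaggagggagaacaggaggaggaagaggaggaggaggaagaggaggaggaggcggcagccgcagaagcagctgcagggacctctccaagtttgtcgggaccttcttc
Sp9: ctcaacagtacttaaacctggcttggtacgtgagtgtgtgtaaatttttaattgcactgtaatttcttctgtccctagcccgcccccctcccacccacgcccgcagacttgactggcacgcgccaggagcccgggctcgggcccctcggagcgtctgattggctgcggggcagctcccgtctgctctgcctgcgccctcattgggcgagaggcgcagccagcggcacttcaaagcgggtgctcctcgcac
RefSeq held promoter entries for 5 of the 8 genes, namely Lhx6, Sox6, Satb1, Sp9 and Dlx1. The windows ran from 250 bases before to 50 bases after each start, and both strands were searched for TAATTA (a core bound by homeodomain proteins), TGACGTCA (the CREB site) and TGANTCA (the AP-1 site). These letters occurred in 5.29%, 1.79% and 7.81% of all 32851 promoters, in that order. Among the starts of the 5 genes, only the first start of Lhx6 held a match, TGACTCA. A match is a description of the letters and not a measured binding site.

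The estimated counts summed to between 44064161 and 49413273 per sample, so 3 counts correspond to 0.0607 to 0.0681 CPM (counts scaled to a common library size). This limit covers counting error only, since PCR copies are not independent molecules. The 8 genes stood far above it, with 153 to 290 estimated counts per sample for Dlx6, the lowest, and 6910 to 9506 for Satb1, the highest. Vehicle replicate 1 stood apart from the other samples in markers of the labelled cell type. Pvalb was at 300.1 TPM (counts scaled by transcript length) there and between 820 and 1160 TPM in the other samples, and Rpl10a, the gene of the tagged protein, was at 301 TPM against 655 to 1295 TPM. Averaged over 12 PV+ interneuron markers, log2 CPM was 5.90 in that sample and 6.93 to 7.75 in the others. Pyramidal cell markers were present in all 8 samples, with Slc17a7 at 331 to 547 TPM. In bulk RNA of this kind, fewer captured cells and less RNA per cell cannot be told apart. As a check of the treatment, 7 activity genes were examined, namely Fos, Fosb, Npas4, Arc, Egr1, Nr4a1 and Junb. Fos, an immediate early gene, was at 36.9 to 83.7 TPM with CNO and 13.8 to 20.6 TPM with vehicle. Its adjusted p was 0.052 in the edgeR quasi-likelihood test. All 7 were fitted higher with CNO, beside 50.4% of all genes tested. Only for Fos and Fosb did the groups stand apart, beside 0.789% of all genes with CNO above vehicle. The log2 fold change was 1.93 ± 0.21 (SE) for Fos, 0.15 ± 0.28 for Npas4 and 0.072 ± 0.18 for Egr1. Fitted values of the 8 genes and counts over lists are also given without vehicle replicate 1.

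Satb1 and Dlx1 were the most abundant of the 8 transcription factors per transcript length, at a mean of 104 and 99.7 TPM over the 8 samples. Lhx6 followed at 53.6 TPM, Dlx5 at 24.1, Maf at 12.4, Dlx6 at 9.81, Sox6 at 8.35 and Sp9 at 7.79. By mean TPM, Satb1 was above 89.6% and Sp9 above 40.9% of the genes tested. Neighbours in this order were compared within samples, as differences of log2 TPM tested by exact sign-flip permutation with adjustment over 7 pairs. Dlx1 exceeded Lhx6 by 0.91 ± 0.15 (SD, n = 8) on the log2 TPM scale, Lhx6 exceeded Dlx5 by 1.17 ± 0.11, Dlx5 exceeded Maf by 0.92 ± 0.29 and Maf exceeded Dlx6 by 0.34 ± 0.31, each in 8 of 8 samples (adjusted p = 0.0137, exact sign-flip test). Satb1 and Dlx1 did not differ beyond their spread, with a difference of 0.093 ± 0.27 (adjusted p = 0.43, exact sign-flip test). The same held for Dlx6 against Sox6, which differed by 0.22 ± 0.32 (adjusted p = 0.142, exact sign-flip test), and for Sox6 against Sp9, which differed by 0.16 ± 0.33 (adjusted p = 0.355, exact sign-flip test).

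None of the 8 genes passed the adjusted test between CNO and vehicle, and all 8 fitted log2 fold changes lay above 0. The edgeR quasi-likelihood test gave every member an adjusted p of 0.817, and it called 0 of the 17495 genes (0%) at an adjusted p under 0.05, more than 1.5-fold and a mean above 1 TPM. In the same test 716 genes (4.09%) had an unadjusted p under 0.05, while the likelihood ratio test with robust dispersion called 12 genes and DESeq2 called 10, none of them a member. The log2 fold change was above 0 for 50.4% of the genes tested. The median over the 8 transcription factors was 0.35, beside 0.0014 over all genes tested. Without vehicle replicate 1, 8 of 8 again lay above 0, beside 48.7% of all genes, and the median was 0.19. A further fit held the marker index as a term, built by subtracting the mean log2 CPM of 10 pyramidal cell markers from that of 12 PV+ interneuron markers. There, 5 of 8 lay above 0, beside 43.6% of all genes, with a median of 0.078, and Lhx6, Maf and Dlx1 turned to values below 0.

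**Figure D1:**
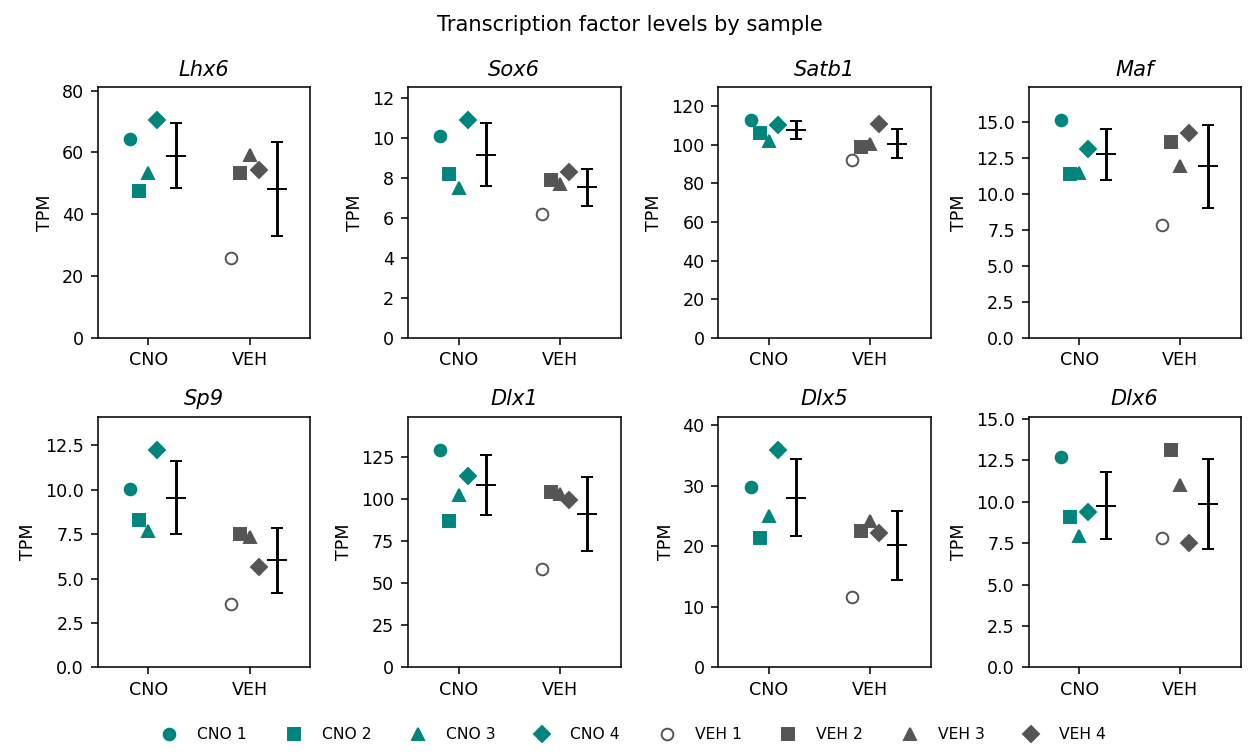
TPM of the 8 transcription factors in each sample, with CNO in teal and vehicle (VEH) in grey, symbols by replicate number, vehicle replicate 1 open, and black bars for the mean ± SD of 4 samples. Vehicle replicate 1 is the lowest sample in 7 panels, and Sp9 is the only gene whose groups do not overlap.

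Lhx6, the LIM homeobox factor upstream of Sox6 and Satb1, was at 64.5, 47.5, 53.5 and 70.5 TPM in CNO replicates 1 to 4. In vehicle replicates 1 to 4 it was at 25.9, 53.5, 59.2 and 54.4 TPM. Vehicle replicate 1 was at 0.443 times the level of the other vehicle samples (from mean log2 CPM), and the groups overlapped otherwise. The fitted log2 fold change was 0.35 ± 0.25 (SE, n = 4 against 4; exact permutation p = 0.314) over all samples and 0.13 ± 0.15 without vehicle replicate 1. With the marker index as a term it was -0.095 ± 0.062.

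Sox6, which acts in interneuron migration and maturation, was at 10.1, 8.21, 7.51 and 10.9 TPM with CNO and at 6.19, 7.899, 7.70 and 8.32 TPM with vehicle. CNO replicates 1 and 4 lay above every vehicle sample and the other CNO samples within the vehicle range. Its log2 fold change was 0.40 ± 0.19 (SE, n = 4 against 4; unadjusted p = 0.0559 in the edgeR quasi-likelihood test, exact permutation p = 0.171), and 0.27 ± 0.16 without vehicle replicate 1.

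Satb1, a chromatin organizer of maturing interneurons, varied least of the 8 genes, with an SD of 0.12 in log2 CPM over the 8 samples against 0.30 to 0.59 for the others. It was at 113, 106, 102 and 110.3 TPM with CNO and at 92.2, 99.1, 100.4 and 110.8 TPM with vehicle. The groups overlapped, and the log2 fold change was 0.15 ± 0.097 (SE, n = 4 against 4; exact permutation p = 0.0857) with a 95% interval of -0.064 to 0.36. Without vehicle replicate 1 it was 0.097 ± 0.088 (exact permutation p = 0.171).

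Maf, a leucine zipper factor of the large Maf family, was at 15.2, 11.4, 11.5 and 13.1 TPM with CNO and at 7.83, 13.6, 11.98 and 14.3 TPM with vehicle. Apart from vehicle replicate 1, the vehicle samples lay within the CNO range. The log2 fold change was 0.20 ± 0.17 (SE, n = 4 against 4; exact permutation p = 0.371) and fell to 0.049 ± 0.13 without that sample.

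Sp9 had the largest fitted change of the 8 genes and was the only one whose groups did not overlap. It was at 10.0, 8.28, 7.67 and 12.3 TPM with CNO and at 3.56, 7.53, 7.35 and 5.66 TPM with vehicle. In CPM the lowest CNO sample stood at 15.3 and the highest vehicle sample at 15.0, so the gap between the groups was small. Groups stood apart for 2.42% of all genes tested, with CNO above vehicle for 0.789% and below it for 1.63%. The log2 fold change was 0.73 ± 0.25 (SE, n = 4 against 4; 95% interval 0.19 to 1.27), a 1.66-fold difference with an unadjusted p of 0.0133 and an adjusted p of 0.817 in the edgeR quasi-likelihood test. An unadjusted p under 0.05 with CNO above vehicle was found for 1.44% of the genes tested, and for 1 of the 8 transcription factors. The exact permutation p was 0.0286, the smallest that 4 samples against 4 allow, and 0.114 without vehicle replicate 1. Without that sample the log2 fold change was 0.53 ± 0.18 (unadjusted p = 0.0139, edgeR), beside 0.955% of all genes that lay higher at an unadjusted p under 0.05. With the marker index as a term it was 0.33 ± 0.13 (unadjusted p = 0.0324, edgeR), beside 1.31%. Since Sp9 is also a gene of striatal projection neurons, their markers are given beside it. The summed TPM of 8 such markers was 150.4 to 241.5 with CNO and 255.2 to 386 with vehicle, with 7 of 8 fitted lower with CNO, over all samples and without vehicle replicate 1, the opposite direction to Sp9. Their part in the Sp9 values was not tested.

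**Figure D2:**
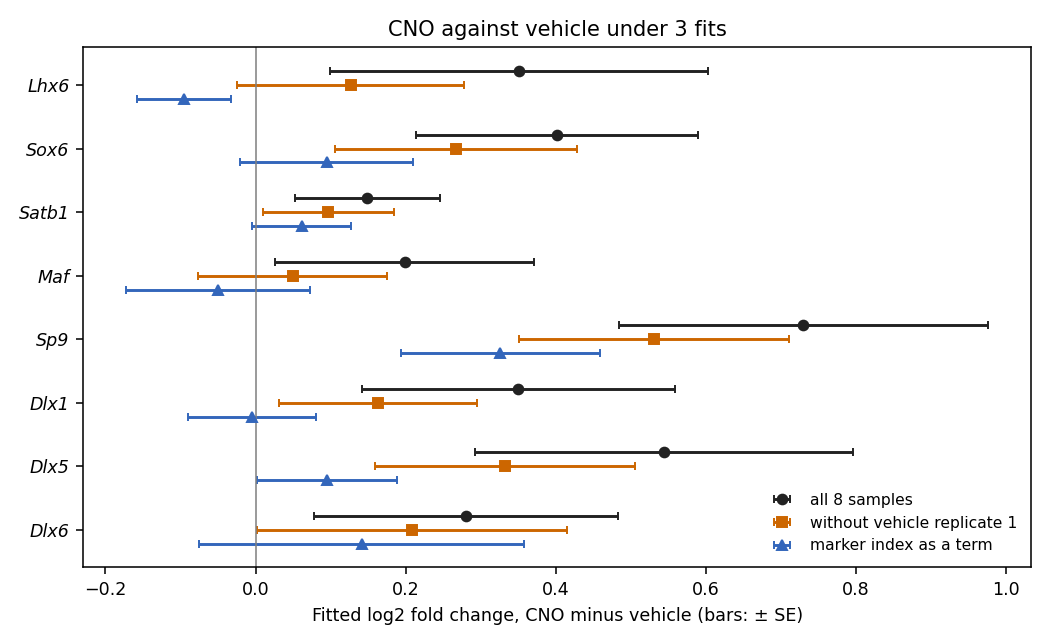
Fitted log2 fold change of CNO against vehicle (horizontal axis) for the 8 transcription factors in 3 edgeR fits, over all 8 samples, without vehicle replicate 1, and with the marker index as a term; bars are ± SE. Sp9 stays at 0.73, 0.53 and 0.33 in the 3 fits, while Lhx6 goes from 0.35 to -0.095.

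Dlx1, the most abundant Dlx gene of the samples, was at 129, 87.1, 102 and 113 TPM with CNO and at 58.6, 104, 103 and 99.3 TPM with vehicle. CNO replicate 2 lay below 3 of the 4 vehicle samples. The log2 fold change was 0.35 ± 0.21 (SE, n = 4 against 4; exact permutation p = 0.2), 0.16 ± 0.13 without vehicle replicate 1 and -0.0049 ± 0.086 with the marker index as a term.

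Dlx5 was at 29.8, 21.3, 24.9 and 35.9 TPM with CNO and at 11.7, 22.6, 24.2 and 22.2 TPM with vehicle. On this scale 3 of the 4 CNO samples lay above every vehicle sample. The log2 fold change was 0.54 ± 0.25 (SE, n = 4 against 4; unadjusted p = 0.0541 in the edgeR quasi-likelihood test, exact permutation p = 0.143) and 0.33 ± 0.17 without vehicle replicate 1. It was 0.095 ± 0.094 with the marker index as a term.

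Dlx6, the neighbour of Dlx5, was at 12.7, 9.08, 7.91 and 9.37 TPM with CNO and at 7.81, 13.1, 11.0 and 7.48 TPM with vehicle. It was the only one of the 8 genes whose lowest sample was not vehicle replicate 1. The log2 fold change from counts was 0.28 ± 0.20 (SE, n = 4 against 4; exact permutation p = 0.257), and 0.21 ± 0.21 without vehicle replicate 1, whereas limma on log2(TPM + 1) gave 0.0013 ± 0.19 over all samples. The scales are linked by the number of estimated counts per TPM, which follows the transcript length assigned in the quantification and varied between samples for Dlx6. Relative to the median gene of each sample this number was 0.453 to 0.510 with CNO and 0.356 to 0.463 with vehicle, a range of 35.0% of its mean, beside 3.3% for Dlx5 and 5.41% for Lhx6. An offset for this length, chosen after the data were seen, gave a log2 fold change of 0.042 ± 0.22.

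The 8 genes differed in how closely their levels followed the PV+ interneuron markers from sample to sample. Over the 12 markers the mean log2 CPM was 7.41 ± 0.35 (SD, n = 4) with CNO and 6.94 ± 0.70 with vehicle (difference 0.46, exact permutation p = 0.314), and without vehicle replicate 1 the difference was 0.12 (exact permutation p = 0.6). All 12 markers were fitted above 0 with a median log2 fold change of 0.38, 1 of them at an unadjusted p under 0.05. Without that sample 10 of 12 lay above 0, with a median of 0.13. Their summed TPM was 2825 to 4346 with CNO and 1379 to 3520 with vehicle. Subtracting the marker mean of the same sample lowered the SD of Lhx6 over the 8 samples from 0.50 to 0.087 in log2 CPM, that of Dlx5 from 0.53 to 0.14, that of Dlx1 from 0.41 to 0.19 and that of Sp9 from 0.59 to 0.27. It went from 0.37 to 0.29 for Sox6 and from 0.30 to 0.33 for Maf. For Satb1 the SD grew from 0.12 to 0.47 and for Dlx6 from 0.32 to 0.48. Subtraction assumes changes of equal size, so a gene that rises and falls with the markers over a smaller range also gains SD. In log2 CPM, Satb1 correlated with Gad1 at r = 0.924 and with Pvalb at 0.801 (0.84 and 0.485 without vehicle replicate 1). Dlx6 correlated with them at 0.579 and 0.518 (0.475 and 0.466). In vehicle replicate 1 Satb1 and Dlx6 were at 0.874 and 0.84 times the other vehicle samples, a smaller drop than that of the markers. That sample stood 1.19 above the other vehicle samples for Satb1 relative to the markers and 0.21 above them for Lhx6.

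Relative to the markers, no gene differed between CNO and vehicle at an adjusted p under 0.05 over the 8 comparisons. The differences in log2 CPM ran from -0.31 for Satb1 to 0.30 for Sp9 (adjusted p = 0.731 for both, exact permutation test). Lhx6 was at -1.06 ± 0.048 with CNO and -0.998 ± 0.11 with vehicle (SD, n = 4), a difference of -0.062. Sp9 was at -3.16 ± 0.18 and -3.47 ± 0.28, and its difference was 0.40 without vehicle replicate 1.

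**Figure D3:**
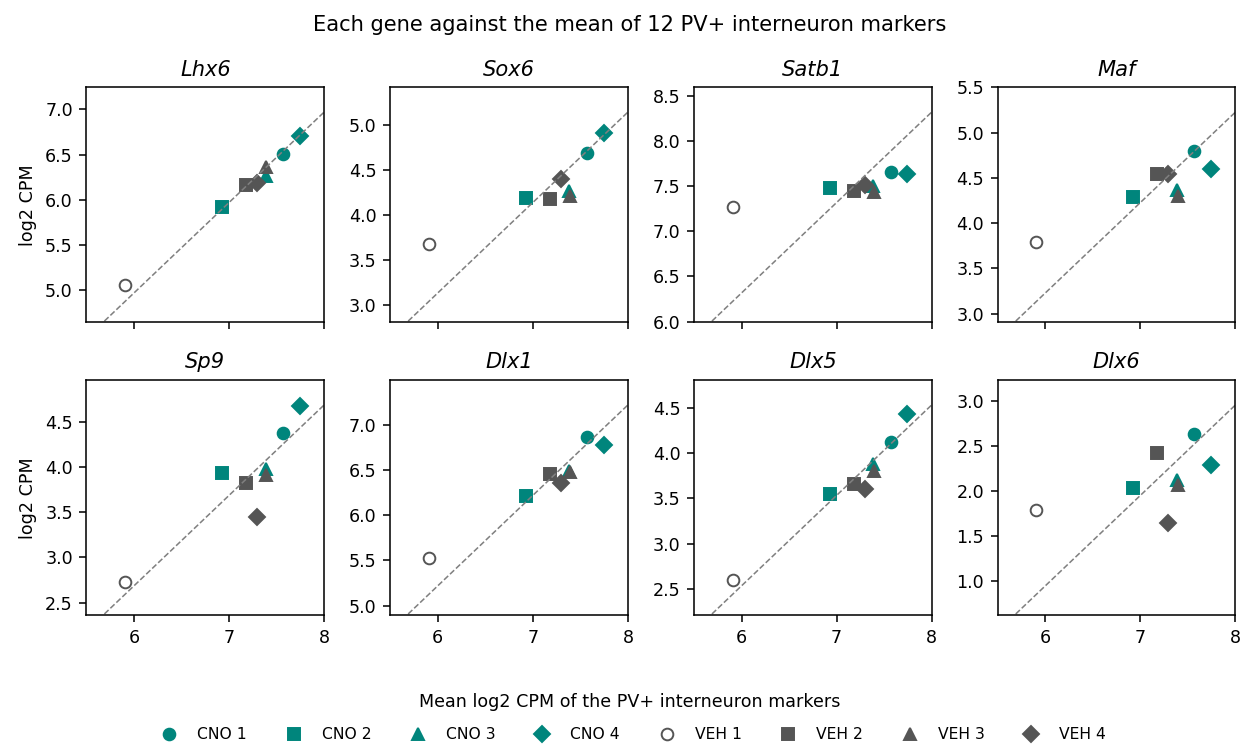
Log2 CPM of each transcription factor (vertical axis) against 12 PV+ interneuron markers, taken as their mean log2 CPM (horizontal axis), 1 symbol a sample, CNO in teal, vehicle in grey, vehicle replicate 1 open. Dashed lines have a slope of 1 through the mean of the 8 samples; Lhx6 stays close to its line (SD of the distance 0.087), while Satb1 is flatter than the line.

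Vehicle replicate 1 was the lowest sample for 7 of the 8 transcription factors in CPM, beside 30.5% of all genes tested. The highest sample was CNO replicate 1 for 4 of them and CNO replicate 4 for the other 4, which were the highest samples for 11.0% and 22.9% of all genes. Both had the most PV+ interneuron marker signal, at a mean log2 CPM of 7.57 and 7.75. Markers of other cells were present in both groups. The summed TPM of 10 pyramidal markers was 1478 to 2007 with CNO and 1663 to 2320 with vehicle, that of 12 markers of other interneurons 615.2 to 714.8 and 709.9 to 825.3, and that of 8 astrocyte markers 495.5 to 578.2 and 509.1 to 634.6. For 7 oligodendrocyte markers the sums were 567.1 to 1026 and 784.9 to 1007, for 6 markers of their precursors 60.6 to 88.6 and 82.9 to 105.7, for 6 microglial markers 61.5 to 90.7 and 76.7 to 103.8, and for 6 vascular markers 44.8 to 110.1 and 66.1 to 90.7. Their part in the values of the 8 genes was not tested.

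The ratio of neighbouring Dlx genes within a sample takes out a change in RNA amount that both share. Dlx5 exceeded Dlx6 by 2.35, 2.35, 3.15 and 3.83 times in TPM in CNO replicates 1 to 4 and by 1.49, 1.72, 2.20 and 2.97 times in vehicle replicates 1 to 4. The groups overlapped, and the log2 ratio was 1.52 ± 0.35 with CNO and 1.02 ± 0.44 with vehicle (SD, n = 4), a difference of 0.50 (exact permutation p = 0.114, adjusted p = 0.229 over both ratios). From CPM the difference was 0.28 (exact permutation p = 0.371). Dlx1 exceeded Dlx2 by 4.88, 4.94, 5.44 and 4.40 times with CNO and by 4.57, 4.84, 5.58 and 4.87 times with vehicle. Its log2 ratio was 2.29 ± 0.13 with CNO and 2.31 ± 0.12 with vehicle, a difference of -0.015 (exact permutation p = 0.83, adjusted p = 0.83). Vehicle replicate 1, the lowest sample for both genes, lay within the range of the other samples for their ratio.

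**Figure D4:**
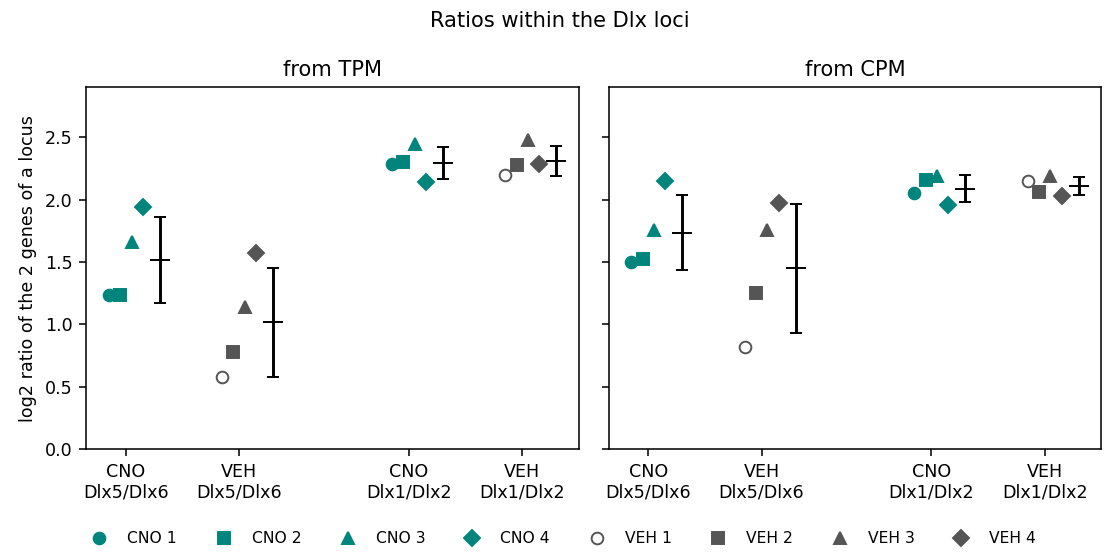
Log2 ratio of Dlx5 to Dlx6 and of Dlx1 to Dlx2 in each sample (vertical axis), from TPM on the left and from CPM on the right, CNO in teal, vehicle in grey, bars mean ± SD of 4 samples. In TPM, Dlx1 to Dlx2 is near 2.3 in both groups (2.29 and 2.31), and Dlx5 to Dlx6 spans 0.58 to 1.94.

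The 6 gene families of the 8 transcription factors hold 28 further genes, of which 16 were tested and 17 had a mean below 1 TPM. Of the 16, 7 were fitted above 0 and 9 below, with a median of -0.017, and 2 lay lower at an unadjusted p under 0.05, beside 2.65% of all genes. These were Sox5, the SoxD factor of deep-layer projection neurons, at a log2 fold change of -0.21 ± 0.081, and Lhx2, a LIM homeobox gene of cortical progenitors, at -0.30 ± 0.13. Sox5 was at 31.9, 34.9, 31.9 and 24.1 TPM with CNO and at 46.4, 42.3, 43.0 and 31.8 TPM with vehicle. Lhx2 was at 23.5, 28.8, 26.5 and 24.3 TPM with CNO and at 40.2, 34.7, 33.9 and 25.1 TPM with vehicle. Lhx2 was highest in vehicle replicate 1 in TPM and in CPM, Sox5 in TPM only. Without that sample 7 of the 16 genes lay above 0, with a median of -0.027, and 1 lay lower at an unadjusted p under 0.05, Sox5 (-0.21 ± 0.081), while Lhx2 was at -0.23 ± 0.12.

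Dlx2, which also acts in GABAergic neurons, was lowest in vehicle replicate 1, as were most of the 8 genes. It was at 26.5, 17.6, 18.8 and 25.8 TPM with CNO and at 12.8, 21.5, 18.5 and 20.4 TPM with vehicle (log2 fold change 0.38 ± 0.23, and 0.18 ± 0.17 without vehicle replicate 1). Sp8, the closest relative of Sp9 and a factor of interneurons from the caudal ganglionic eminence, stayed between 0.082 and 0.26 TPM, and Sp1 to Sp4, which most cells express, were fitted between -0.018 and 0.017. In the LIM homeobox family 10 of 11 further genes had a mean below 1 TPM, among them Lhx8, a gene of cholinergic neurons, at 0.059 to 0.30 TPM. Dlx1as, transcribed opposite Dlx1, was at 58.6, 42.9, 48.3 and 44.9 TPM with CNO and at 23.8, 52.4, 51.3 and 49.5 TPM with vehicle. It was low in the same sample as Dlx1. Exons shared with Dlx1 make up 20.55% of the exonic bases of Dlx1as, and reads there cannot be assigned for certain. Mean CPM was 97.2 with CNO and 76.2 with vehicle for Dlx1, against 10.5 and 9.06 for Dlx1as. The part of Dlx1 reads in the Dlx1as values was not tested.

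**Figure D5:**
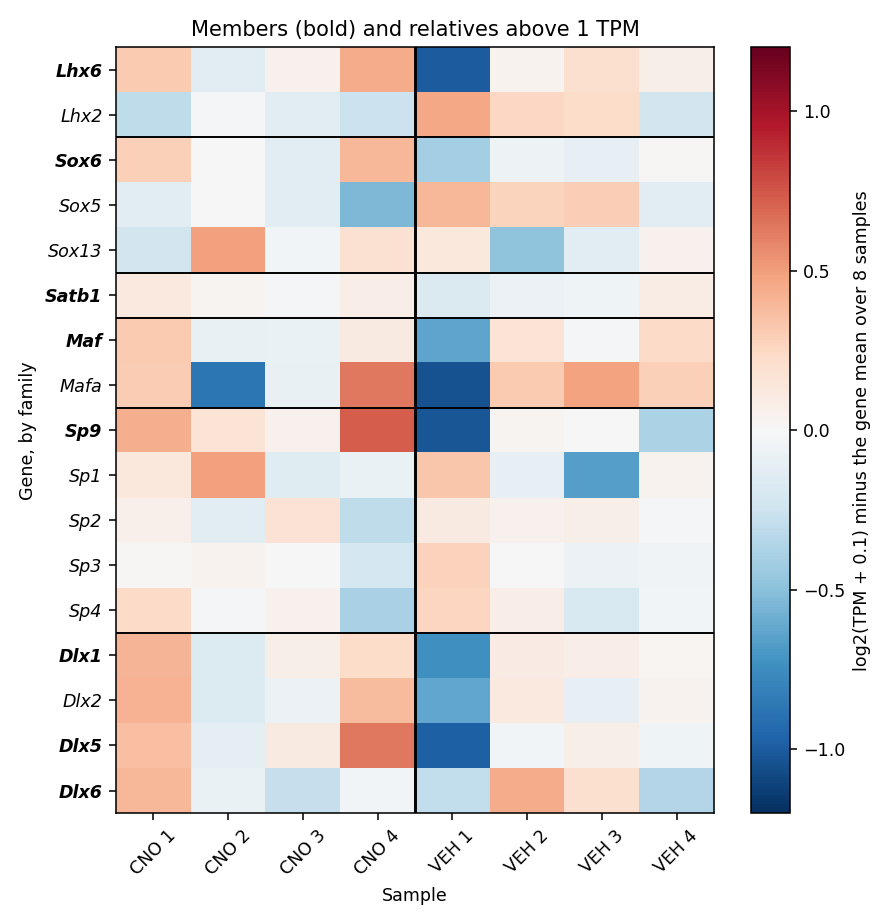
Level in each sample (columns) of the 8 transcription factors (bold) and of relatives above 1 TPM (rows, by family) as log2(TPM + 0.1) minus the mean of the gene over 8 samples, red higher and blue lower. In vehicle replicate 1, Lhx6, Sp9, Dlx1 and Dlx5 are blue while Lhx2 and Sox5 are red.

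Other transcription factors of the subpallium were compared as a list of 15 genes, of which 12 were tested. In it 5 were fitted above 0 and 7 below, with a median of -0.027 and 0 at an unadjusted p under 0.05 in the edgeR quasi-likelihood test. Without vehicle replicate 1, 5 lay above 0 with a median of -0.014, and 1 lay lower at an unadjusted p under 0.05, Etv1 (-0.17 ± 0.078). Nkx2-1, the progenitor factor upstream of Lhx6, was at 0.054 to 0.60 TPM. Vehicle replicate 1 was the lowest sample for 3 of the 12 tested genes, Dlx2 among them, beside 30.5% of all genes tested.

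Factors of the caudal ganglionic eminence showed 1 of 4 genes above 0, with a median of -0.087, and the same count with a median of -0.078 without vehicle replicate 1. These are Prox1, Nr2f1, Nr2f2 and Sp8, and the fitted values ran from -0.12 for Prox1 to 0.58 for Sp8, with 0 at an unadjusted p under 0.05 in the edgeR test. Factors of the pallium, where pyramidal cells arise, had 2 of 14 tested genes above 0 and 12 below, with a median of -0.10. Of these, 3 lay lower at an unadjusted p under 0.05, beside 2.65% of all genes. They were Foxp2 (-0.45 ± 0.16), Pax6 (-0.44 ± 0.14) and Lhx2. Without vehicle replicate 1, 3 of 14 lay above 0 with a median of -0.035, and 1 lay lower at an unadjusted p under 0.05, Pax6 (-0.42 ± 0.16), while Foxp2 was at -0.34 ± 0.16. With the marker index as a term 8 of 14 lay above 0, with a median of 0.035. Vehicle replicate 1 was the highest sample for 10 of the 14 in CPM. The share of all genes highest in that sample was not counted, so whether this number is unusual cannot be said.

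Among 15172 other genes with a mean above 1 TPM, those with the sample pattern most like each transcription factor were found by Pearson's r of log2 CPM over the 8 samples. These values describe 8 samples that share the drop of PV+ interneuron signal in vehicle replicate 1, so each r is followed by its value without it. As the genes were picked by r over all 8 samples, the value without that sample is not an independent check. Lhx6 was most like Hapln4, a link protein gene of perineuronal nets (r = 0.999, and 0.994 without that sample), and Nxph1, a neurexophilin gene that is 1 of the 12 markers (0.998 and 0.994). Dlx5 was most like Arhgef3 (0.998 and 0.994) and Eno2, the neuronal enolase (0.997 and 0.993). Dlx1 was most like Mff, a gene of mitochondrial fission (0.998 and 0.996), and Tsfm, a mitochondrial translation factor (0.998 and 0.993). For Sox6 these genes were Mul1 (0.989 and 0.984) and Psmd10 (0.988 and 0.984), and for Satb1 they were Mrps27 (0.987 and 0.977) and Sptssb (0.986 and 0.973). Maf was most like Ica1 (0.991 and 0.973) and Rars2 (0.987 and 0.990). Sp9 was most like Dda1 (0.988 and 0.973) and Fam222b (0.986 and 0.968), and Dlx6 most like Nfs1 (0.978 and 0.976) and Abhd10 (0.972 and 0.969).

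Within the 8 transcription factors, Dlx5 was the most like the rest, with a median r of 0.936 to the other 7, and 0.894 without vehicle replicate 1. Such values were common over all genes. Among the 15172 genes compared, the other 7 ranked from 170 (Lhx6) to 4888 (Dlx6) in likeness to Dlx5, with Sox6, at 0.936, at rank 1569. Dlx6 was the least like them, at 0.62 and 0.54. Maf fell from 0.864 to 0.574 when that sample was left out, the largest drop of the 8 genes.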

How the data were processed

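Ribosome-associated RNA was captured from S1 by anti-HA beads, with tissue of 4 brains per sample, and sequenced in 4 samples of CNO-treated and 4 of vehicle-treated mice. By the methods and the submitters' processing notes, the authors checked reads with FastQC, trimmed them with Trim Galore and used STAR and Salmon on GRCm38/mm10, with versions not given in the sources used here. The authors deposited the estimated counts of each gene, without normalization, and TPM, which corrects counts for transcript length and gives each sample the same sum. TPM therefore depends on the transcript length assigned in each sample. Counts are not corrected for length, so a difference in transcript length between samples can alter them.

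The estimated counts were rounded to whole numbers, and a gene was dropped where 4 or more samples had fewer than 10. CNO was compared with vehicle in R 4.3.3 with edgeR 4.0.16 (TMM normalization, quasi-likelihood test, Benjamini-Hochberg adjustment over 17495 genes). The methods name a robust dispersion in edgeR without a test, so it was run with the likelihood ratio test as an alternative. Other alternatives used DESeq2 1.42.0, RLE size factors, no filter, limma 3.58.1 on log2 TPM, a replicate block, replicates 1 and 2 against 3 and 4, the marker index, and each sample left out. Log2 CPM of single samples used a prior count of 2. Values of single genes were tested by exact permutation, two-sided over 70 assignments, and gene pairs within samples by 256 sign flips. Standard errors came from the fitted coefficients, and the scripts were tested on simulated data. Exact tests were run in Python 3.11.15, and matplotlib 3.10.9 drew the plots.

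The genes and lists were chosen with earlier results of these data known. Genes named are the 8 members, their families, lists of subpallial, caudal and pallial factors, of cell type markers and of activity genes, and the 2 genes most like each member. Some genes counted in the lists are not reported here by name. Dlx6os1 is not reported, because 2 identifiers carry its name.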

Additional observations from a re-analysis of the deposited data

Results flagged for a closer look

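In each group of 4 samples, the sample farthest from its neighbour was compared with Dixon's 95% limit for 20 measures (the 8 genes in log2 CPM, the same relative to the PV+ interneuron markers, the mean of the 8 genes, the marker mean and both Dlx ratios). Chance alone would pass about 1 in 20 of the 40 groups tested if they were independent, and 6 passed, all in vehicle replicate 1. The measures share genes and samples, so the 6 are not separate events and cannot be weighed against that share.

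Lhx6 was at 5.06 in that sample and at 6.16 to 6.37 in the other vehicle samples (gap over range 0.844). Dlx1 was at 5.52 against 6.36 to 6.48 (0.875), and Dlx5 at 2.60 against 3.61 to 3.81 (0.832). The mean of the 8 genes was at 4.06 against 4.71 to 4.84 (0.841), and that of the 12 PV+ interneuron markers at 5.90 against 7.18 to 7.39 (0.856). Satb1 relative to the marker mean stood out upwards, at 1.37 against 0.047 to 0.27 (0.833).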

How the results depend on the processing

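Sp9 kept its direction and an unadjusted p under 0.05 in all 18 alternatives, from 0.33 with the marker index to 0.88 without vehicle replicate 3, with adjusted p from 0.472 to 1.00 (edgeR, DESeq2 or limma). None of the 8 genes passed adjustment in any of the 18. With the marker index as a term, 5 of 8 genes lay above 0 and 3 turned, namely Lhx6 (-0.095), Maf (-0.050) and Dlx1 (-0.0049). In every other alternative 8 of 8 lay above 0. When single samples were left out, the median of the 8 genes ran from 0.19 to 0.47, the log2 difference of Dlx5 to Dlx6 from 0.35 to 0.68 (exact permutation p = 0.0286 without vehicle replicate 4), and that of Dlx1 to Dlx2 from -0.065 to 0.042.

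Over all genes, the calls were 12 with the robust dispersion, 10 with DESeq2, 4 without the filter, 3 with replicates 1 and 2 against 3 and 4 as a term, and 0 to 2 when single samples were left out (2 without CNO replicate 1). limma on log2(TPM + 1) had 185 of 940 genes at an unadjusted p under 0.05 higher with CNO, and 178 of 916 on log2(TPM + 0.1), against 252 of 716 from counts. In the CNO samples alone, 4 of the 8 genes kept their rank by TPM. Relative to the PV+ interneuron markers, leaving out vehicle replicate 1, chosen after the data were seen, turned Sox6 (0.13), Dlx1 (0.032) and Dlx6 (0.11) to values above 0. The causes were not tested.

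The labels do not say whether equal replicate numbers mark pairs. Samples with the same number correlated at 0.026, -0.030, 0.161 and 0.239 in their deviations from the group means. Of the 4 CNO samples, 1 correlated best with its own number. CNO replicates 1 and 2 correlated with vehicle replicates 1 and 2 at -0.030 to 0.431, and replicates 3 and 4 at 0.0836 to 0.325. Between these sets all values were negative, from -0.403 to -0.0446. Deviations from a group mean cancel within the group, so positive values within the sets largely force negative ones between them. With the sets as a term, 1193 genes had an unadjusted p under 0.05 in edgeR, against 716 without it. The source of this structure was not tested. A replicate block gave a median of 0.38, 8 of 8 genes above 0, 0 calls over all genes and a log2 fold change of 0.76 for Sp9, and it changed no call. With 4 samples a group and 1 that stands apart, an absent change in these genes is not shown.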
